A study of Mus musculus with 6 samples.

Results

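The genes described here are 8 markers of B cells and plasma cells that are not immunoglobulin genes, read in the livers of mice on a diet that damages the liver. They were found by symbol in a table of read counts for 52550 genes: Cd79a, Cd79b, Ms4a1 and Pax5 as B cell genes, Jchain, Mzb1 and Tnfrsf17 as plasma cell genes, and Pou2af1, which both cell types use. The liver RNA came from 3 Slc7a11-LTG mice (TG), a transgenic line named for the cystine transporter gene Slc7a11, and 3 control mice (WT). Both groups were male, were 8 weeks old and had been fed MCD, a diet without methionine and choline, for 1 week. No group on another diet was analysed here. For the transgene, the promoter and the cell type that drive it were not given in the sources used here, nor was the strain.

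B cells carry the antigen receptor on their surface, where CD79A and CD79B pass its signal into the cell. When a B cell becomes a plasma cell, it shuts off Pax5, Ms4a1 and most of the receptor programme and turns to making and secreting antibody. Mzb1 and Jchain belong to that secretory state: MZB1 helps antibody fold in the endoplasmic reticulum, and the J chain joins IgM and IgA into polymers. A liver holds few cells of either kind, mostly along its portal tracts and sinusoids.

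Libraries held 16016640 to 17463329 counts, and 3 counts, taken as the smallest number told from 0, correspond to 0.152 to 0.227 CPM (counts scaled to a common library size by the TMM method). Slc7a11 held 24359 to 72729 counts in TG and 44 to 204 in WT livers, and the albumin gene Alb, a hepatocyte marker, held 1239210 to 1803758 counts per library. TG replicates 1 and 2 stood apart from the other 4 livers: the summed level of 13 macrophage markers was 4.17 and 7.14 times the WT mean in them and 1.29 times in TG replicate 3, against 0.777 to 1.30 in WT livers. The sum of 12 neutrophil markers was 10.9, 66.9 and 1.31 times the WT mean in TG replicates 1 to 3. In every liver most reads of that sum came from 1 gene, Lcn2. It held 6251 of 8560, 51923 of 56709 and 1107 of 1232 reads in TG replicates 1 to 3, so the sum mainly follows Lcn2. WT replicate 2 was lowest for both sums. In whole tissue, fewer cells of a type and less RNA per cell cannot be told apart.

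The plasma cell genes Jchain and Mzb1 and the coactivator gene Pou2af1 were read most in TG replicates 1 and 2, as was the B cell gene Cd79b. WT replicate 1 was the highest liver for the other 3 B cell genes. The TG and WT values overlapped for every member but Mzb1. No member passed edgeR's quasi-likelihood test with Benjamini-Hochberg adjustment over all genes. That test covered 4 of the 8 members, since Ms4a1, Pou2af1, Mzb1 and Tnfrsf17 had too few counts for its filter, and it called 0 of 14031 genes (0%). Slc7a11, at 24359 to 72729 counts in TG and 44 to 204 in WT livers, was thus not called either. A member that was not called is therefore not shown to be unchanged. At an unadjusted p below 0.05, 1 member, Jchain, was higher in TG, as were 8.68% of all tested genes, and 0 members were lower, as were 2.37%. DESeq2 gave an adjusted p to only 2 members, Cd79b and Jchain, and called 0. Over all genes it called 390 of the 12925 with an adjusted p, 2.74% higher in TG and 0.279% lower. Limma voom called 0 members and 1 of 14031 genes.

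**Figure D1:**
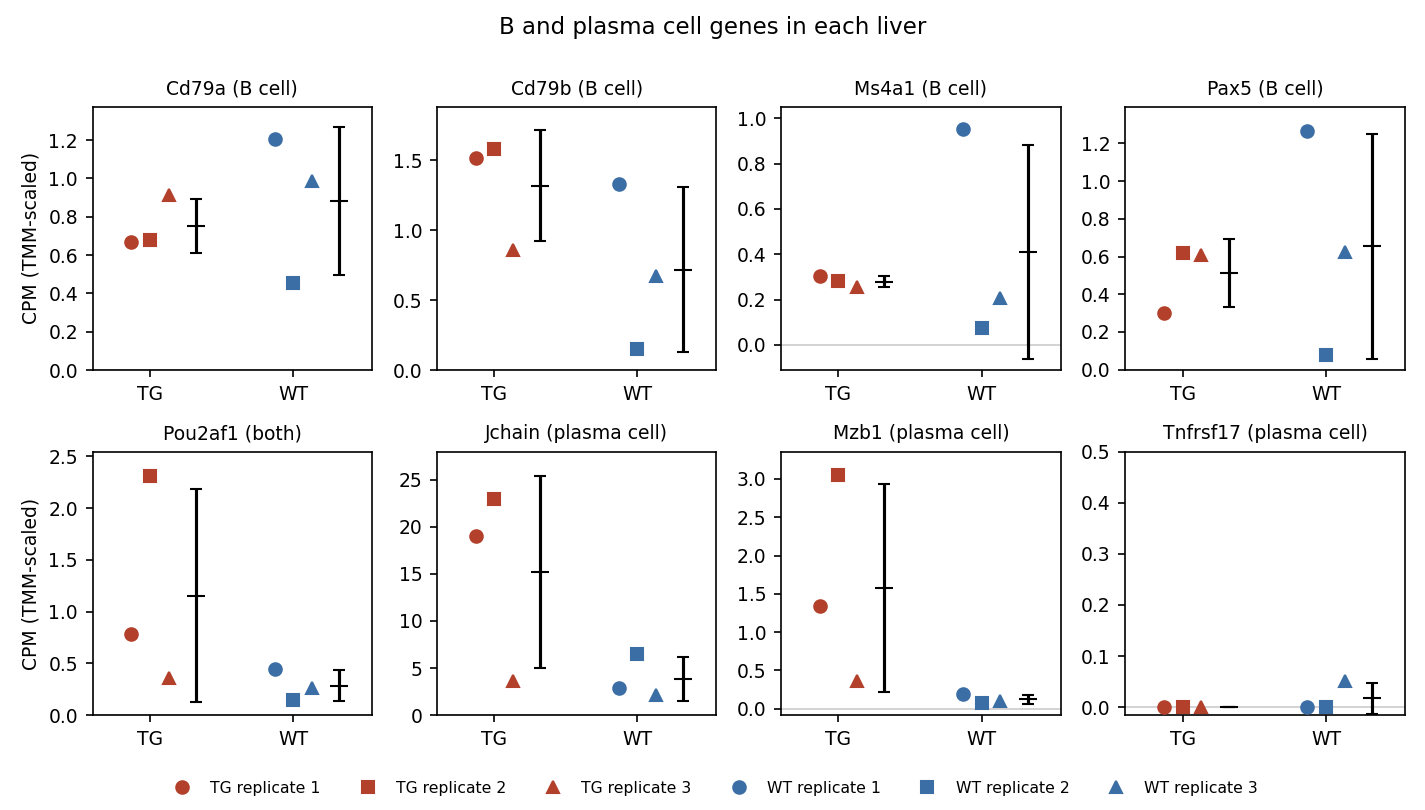
CPM of the 8 genes in each liver (y axis, TMM-scaled, a separate scale in each panel), with TG in red and WT in blue; symbols mark the replicate, and the black bar and whiskers give the mean and SD of 3 livers. TG replicates 1 and 2 lie highest for Cd79b, Jchain, Mzb1 and Pou2af1, and the groups overlap for every gene but Mzb1.

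Among the B cell genes, Cd79a, the receptor's alpha signalling chain, is annotated on chromosome 7 from 24897381 to 24902197 (plus strand; these and all gene positions are from GENCODE on build GRCm38, the same assembly as mm10). TG replicates 1 to 3 held 11, 12 and 18 Cd79a counts and WT replicates 1 to 3 held 19, 6 and 19, in that order, which is kept below. The groups overlapped, with the lowest and the highest values both in WT livers. Mean levels were 0.752 ± 0.139 (TG) and 0.881 ± 0.386 CPM (WT; SD over n = 3 livers). The log2 fold change was -0.24 (SE 0.48), with an adjusted p of 0.893 in edgeR's quasi-likelihood test.

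Cd79b, the beta chain, lies on chromosome 11 from 106311341 to 106314762 (minus strand). It held 25, 28 and 17 counts in TG and 21, 2 and 13 in WT livers, and the groups overlapped through WT replicate 1. Its level was 1.32 ± 0.397 (TG) and 0.719 ± 0.591 CPM (WT), and its adjusted p was 0.693 with edgeR. CD79A and CD79B act as a pair in the receptor, and their fold changes had opposite signs, with neither past the test. The log2 fold change of Cd79b was 0.85 over all livers, 0.40 without WT replicate 2, which held 2 counts, and 1.59 without WT replicate 1.

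Ms4a1, which encodes the surface protein CD20, lies on chromosome 19 from 11249675 to 11266241 (minus strand), under an antisense gene from which its reads cannot be told apart if strand was not used in counting. It held 5 counts in each of the 3 TG livers and 15, 1 and 4 in WT livers. The TG values lay inside the WT range. Pax5, the transcription factor that holds B cell identity, lies on chromosome 4 from 44524757 to 44710487 (minus strand), also with genes annotated on the opposite strand. It held 5, 11 and 12 counts in TG and 20, 1 and 12 in WT livers, so its groups overlapped as well. The adjusted p of Pax5 was 0.896 with edgeR.

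Most of the spread of the B cell genes was among WT livers. WT replicate 2 was lowest of the 6 livers for all 4 genes, and WT replicate 1 was highest for 3 of them, all but Cd79b. Summed over the 4 genes, TG livers held 46, 56 and 52 counts and WT livers 75, 10 and 48. The exact Poisson interval at 95% was 4.80 to 18.4 counts for the 10 of WT replicate 2 and 35.4 to 63.6 for the 48 of WT replicate 3, so these livers differed by more than counting error, which is all that such intervals cover. Summed levels were 2.86 ± 0.268 (TG) and 2.67 ± 2.00 CPM (WT). The smallest p that an exact permutation test of 3 against 3 livers allows is 0.1, and no such p is given here.

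Jchain was the member with the most reads. It is annotated on chromosome 5 from 88519809 to 88527891 (minus strand), with no gene overlapping it. TG livers held 314, 407 and 71 Jchain counts and WT livers 45, 86 and 42. TG replicates 1 and 2 lay far above all WT livers, and TG replicate 3 lay below WT replicate 2, so the groups overlapped. Mean levels were 15.2 ± 10.2 (TG) and 3.84 ± 2.32 CPM (WT), a 3.98-fold difference in the fit (log2 fold change 1.99, SE 0.71). Its adjusted p was 0.386 with edgeR and 0.0765 with DESeq2, and its unadjusted p with edgeR was 0.0244. When TG replicate 3 was left out, the adjusted p was 0.0480 with edgeR, and over all settings tried it lay between 0.0480 and 0.9999. When TG replicates 1 and 2 were left out instead, the log2 fold change was -0.061.

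Mzb1, the endoplasmic reticulum cochaperone of antibody-secreting cells, held 22, 54 and 7 counts in TG and 3, 1 and 2 in WT livers. GENCODE annotates a protein-coding gene that overlaps it on the same strand and has no entry in the count table, so reads of the pair may not be told apart. Mzb1 was the 1 member whose groups did not overlap. TG livers lay above WT livers without overlap for 6.69% of the genes with any read, and below them for 4.68%. All 3 WT values were at or below the level of 3 counts, and TG replicate 3 was closer to the WT livers than to TG replicate 2. The summed reads, 83 in TG and 6 in WT, gave a 12.4-fold ratio after scaling, with an exact binomial interval at 95% of 5.45 to 34.7 that covers counting error only. Fitted by edgeR with no filter on low counts, its log2 fold change was 3.57 (SE 0.83) with an adjusted p of 0.219.

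Pou2af1 encodes a coactivator that works with octamer-binding factors at immunoglobulin promoters and is used by germinal centre B cells and by plasma cells. It lies on chromosome 9 from 51213708 to 51240080 (plus strand), with a noncoding gene annotated inside its intron on the same strand. It held 13, 41 and 7 counts in TG and 7, 2 and 5 in WT livers. TG replicate 2 was highest and TG replicate 1 second, while TG replicate 3 and WT replicate 1 held the same number of reads. With no filter on low counts, edgeR gave a log2 fold change of 1.95 (SE 0.76) and an adjusted p of 0.481.

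Tnfrsf17 encodes BCMA, the receptor through which plasma cells receive the survival signals BAFF and APRIL. It lies on chromosome 16 from 11313812 to 11320074 (plus strand). It was listed at 0 in 5 libraries and held 1 read in WT replicate 3. A count of 0 allows up to 0.152 to 0.227 CPM in these libraries, so a level of this gene below that was not detectable at this depth, and no fold change is given.

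Fitted together with no filter on low counts, the B cell genes showed a median log2 fold change of -0.31, with 1 of 4 above 0. The median of all 25288 genes in that fit was -0.05. Jchain and Mzb1 had log2 fold changes of 1.98 and 3.57. At an unadjusted p below 0.05, 2 members, Mzb1 and Pou2af1, were higher in TG, and so were 5.91% of all genes in that fit; 0 were lower, as were 2.03% of all genes. After adjustment 0 members passed, as did 0% of all genes. With no TG replicate 3, edgeR called 2 members, Jchain and Mzb1 (adjusted p 0.0396, between 0.0396 and 0.697 over the settings that tested it), and 1.99% of its tested genes were called higher. Mzb1 entered that fit only through its reads in TG livers.

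**Figure D2:**
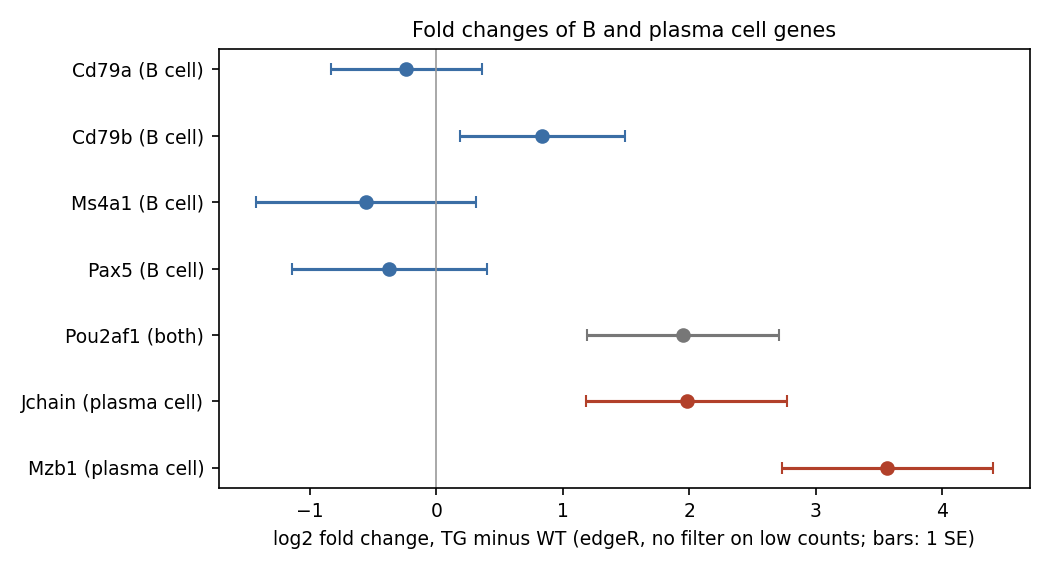
Log2 fold change of 7 genes (x axis, TG minus WT, edgeR with no filter on low counts) with whiskers of 1 SE; B cell genes are blue, plasma cell genes red and Pou2af1 grey. The B cell genes lie between -0.56 and 0.84, and Pou2af1, Jchain and Mzb1 lie between 1.95 and 3.57.

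Set against each other within a liver, reads of the plasma cell genes made up 88.0% of all B and plasma cell gene reads in TG replicate 1 (exact binomial interval at 95%, 84.3 to 91.0) and 89.2% in TG replicate 2 (86.2 to 91.7). The share was 60.0% in TG replicate 3 (51.0 to 68.5). It was 39.0% in WT replicate 1 (30.4 to 48.2), 89.7% in WT replicate 2 (81.9 to 94.9) and 48.4% in WT replicate 3 (37.9 to 59.0). Jchain held 314 of 336, 407 of 461 and 71 of 78 plasma cell gene reads in TG livers. In WT livers it held 45 of 48, 86 of 87 and 42 of 45, so the share mainly sets Jchain against the B cell genes. The groups overlapped because of WT replicate 2, in which the B cell genes were low and Jchain was the highest of the WT livers. That liver held 86 Jchain reads and 1 Mzb1 read, against 7.54 to 21.0 Jchain reads per Mzb1 read in the other 5. The exact Poisson interval at 95% for its 1 Mzb1 read was 0.0253 to 5.57. Whether its ratio differs from that of the other livers was not tested. Summed levels of the plasma cell genes were 16.8 ± 11.5 (TG) and 3.98 ± 2.27 CPM (WT).

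**Figure D3:**
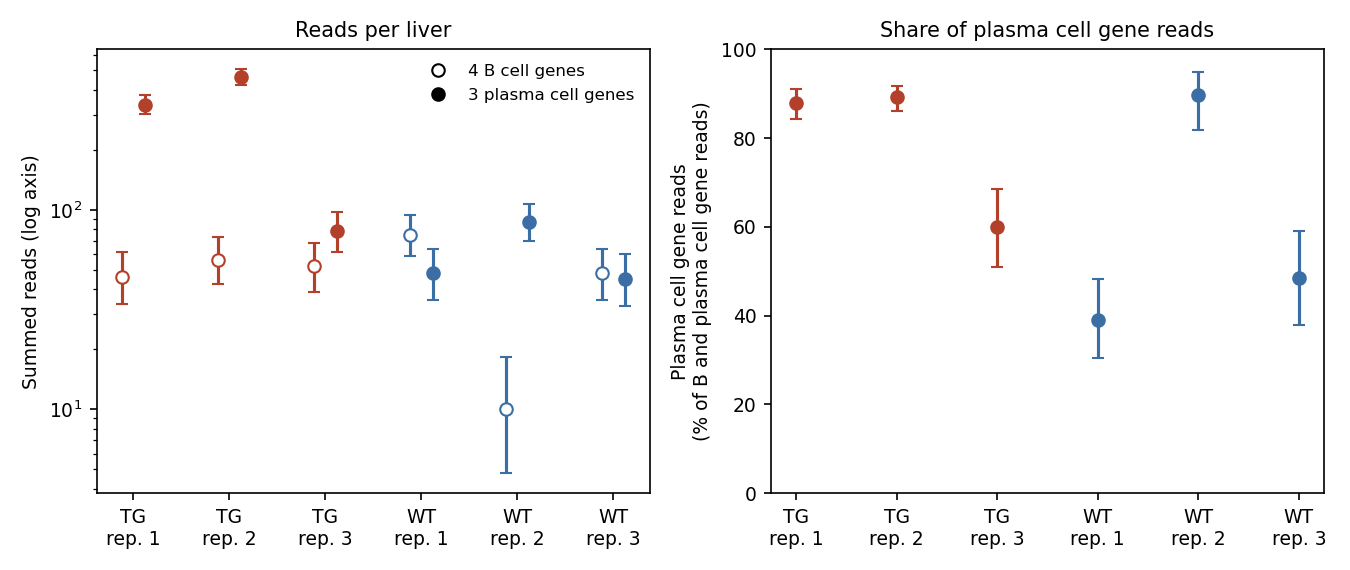
Left, reads summed over the 4 B cell genes (open circles) and the 3 plasma cell genes (filled circles) in each liver on a log axis, with exact Poisson intervals at 95%; right, plasma cell gene reads as a percentage of both, with exact binomial intervals at 95%. The B cell genes hold 46 to 75 reads in every liver but WT replicate 2, with 10, and the plasma cell genes hold 336 and 461 reads in TG replicates 1 and 2 against 45 to 87 elsewhere. Most plasma cell gene reads in every liver are from Jchain.

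Compared per length, as CPM per kilobase of annotated exons, Jchain was the highest member in each liver, at 7.56, 9.12 and 1.43 in TG and 1.13, 2.58 and 0.866 in WT livers. By group means, the order of the other members differed between the groups. In TG livers Mzb1 came second, with a mean of 1.30 CPM per kilobase, before Cd79b (0.922), Cd79a (0.516) and Pou2af1 (0.452). In WT livers Cd79a (0.605) and Cd79b (0.503) came before Pou2af1 (0.112) and Mzb1 (0.101). The ranges of these 4 genes overlapped within TG livers. In TG replicate 3, Cd79a (0.627) and Cd79b (0.603) came before Mzb1 (0.292) and Pou2af1 (0.139). Pax5 was at 0.0577 in TG and 0.0740 in WT and Ms4a1 at 0.0452 and 0.0665, and their ranges overlapped in both groups. Which exons were counted was not given in the sources used here, so the lengths are those of the annotation.

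Reads of the pan-leukocyte gene Ptprc, which encodes CD45 and was chosen after its values were seen, were also most frequent in TG replicates 1 and 2, with 733, 1468 and 357 counts in TG and 260, 127 and 388 in WT livers. Per 100 Ptprc reads, Mzb1 held 3.00, 3.68 and 1.96 reads in TG and 1.15, 0.787 and 0.515 in WT, and the groups stayed apart. The closest values rest on 7 Mzb1 reads in TG replicate 3 and 3 in WT replicate 1. Exact Poisson intervals at 95% for these counts, 2.81 to 14.4 and 0.619 to 8.77, overlap. Jchain held 42.8, 27.7 and 19.9 reads per 100 Ptprc reads in TG and 17.3, 67.7 and 10.8 in WT, and here WT replicate 2 was the highest liver. The 4 B cell genes together held 6.28, 3.81 and 14.6 reads per 100 Ptprc reads in TG against 28.8, 7.87 and 12.4 in WT. TG replicates 1 and 2 were the lowest livers by that measure. Pou2af1 overlapped as well, at 1.77, 2.79 and 1.96 in TG and 2.69, 1.57 and 1.29 in WT livers.

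Jchain and Pou2af1 were high in the same livers and Cd79a was not, so the bases before their annotated starts are shown (RefSeq, GRCm38.p6, gene strand, 5′ to 3′). The windows are chr5:88527898-88528147 (minus strand) for Jchain, chr9:51213440-51213689 (plus strand) for Pou2af1 and chr7:24897247-24897380 (plus strand) for Cd79a, whose printed stretch stops at the first exon base in GENCODE. Capitals mark matches to the motifs named after the sequences.
Jchain: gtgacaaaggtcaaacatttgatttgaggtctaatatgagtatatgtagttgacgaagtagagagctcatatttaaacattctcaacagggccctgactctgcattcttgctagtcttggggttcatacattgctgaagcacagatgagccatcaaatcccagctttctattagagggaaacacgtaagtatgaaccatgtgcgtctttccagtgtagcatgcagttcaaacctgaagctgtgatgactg
Pou2af1: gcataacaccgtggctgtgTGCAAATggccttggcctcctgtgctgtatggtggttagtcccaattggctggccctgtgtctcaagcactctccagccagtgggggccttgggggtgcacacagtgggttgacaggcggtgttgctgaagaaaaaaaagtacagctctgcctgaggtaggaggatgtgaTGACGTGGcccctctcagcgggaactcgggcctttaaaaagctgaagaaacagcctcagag
Cd79a: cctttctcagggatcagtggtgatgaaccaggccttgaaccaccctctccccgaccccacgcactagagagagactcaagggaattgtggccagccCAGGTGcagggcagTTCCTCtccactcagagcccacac

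Motifs were searched on both strands in the 250 bases before the start and were chosen after the sequences were seen. The Pou2af1 window held TGCAAAT, the 7-letter core of the octamer ATGCAAAT, 231 bases before the RefSeq start at 51213690, and TGACGTGG, an element known to bind XBP1 in the unfolded protein response, 61 bases before it. TGCAAAT was present in 3.56% and TGACGTGG in 0.563% of 32851 promoter windows of the same length. The Cd79a window held CAGGTG, the reverse complement of the E-box CACCTG, 154 bases before the RefSeq start at 24897497, and TTCCTC, the reverse complement of the PU.1 core GAGGAA, 140 bases before it. The 116 bases just before that start are exonic in GENCODE and are not printed. These were present in 17.2% and 23.3% of the windows. The full octamer was in 1.60% of the windows and in none of the 3 shown, and the Jchain window held none of the 5 motifs. A match of letters is a description and not evidence that a factor was bound.

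Other genes of the antigen receptor pathway were mostly higher in TG livers, in contrast with Cd79a, but many of them also work in macrophages. Of 18 co-receptor and signalling genes, 15 were tested; 14 had a positive log2 fold change, and their median was 1.30 against -0.03 for all tested genes. Adjusted over all genes, 0 passed with edgeR and 6 with DESeq2, which called 2.74% of its genes higher and 0.279% lower, and 11 had an unadjusted p below 0.05 with a higher level in TG. The tyrosine kinase gene Syk held 609, 948 and 313 counts in TG and 136, 102 and 207 in WT livers. The adaptor gene Blnk held 75, 87 and 143 counts in TG and 35, 34 and 50 in WT, with its highest value in TG replicate 3. Cd37 and Vav1 also lay higher in all 3 TG livers. The B cell genes of the list did not share 1 pattern, as 3 of them show, all named after their values were seen. Blk, a B cell kinase with too few counts to be tested, held 7, 9 and 10 counts in TG and 13, 3 and 5 in WT livers, and the groups overlapped. Cd22, an inhibitory co-receptor, held 65, 95 and 45 counts in TG and 31, 13 and 33 in WT livers, without overlap, and its adjusted p was 0.375 with edgeR. Cd72, another inhibitory receptor, held 193, 399 and 90 counts against 45, 31 and 98, with overlap, and its adjusted p was 0.353 with edgeR and 0.0452 with DESeq2.

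Of 18 other B cell identity genes in the table, 12 were tested, with 5 higher at an unadjusted p below 0.05 and 0 after adjustment with edgeR; DESeq2 called 2, Spi1 among them. Spi1 encodes PU.1, which macrophages use as well, and held 527, 777 and 206 counts in TG and 111, 73 and 189 in WT livers. Of the B cell precursor genes, Rag1 and Rag2, which encode the recombinase, held 0 reads in all 6 libraries; they are named after their values were seen. Dntt, the terminal transferase gene of lymphocyte precursors, held 50, 56 and 84 counts in TG and 43, 23 and 175 in WT livers, in all 6 livers above the level of 3 counts. Its adjusted p was 0.857 with edgeR.

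Among 11 tested plasma cell transcription factor and surface genes, 4 had an unadjusted p below 0.05 and a higher level in TG, and 0 passed after adjustment with edgeR. The median log2 fold change of this list was 0.26, with 7 genes above 0 and 4 below. Prdm1, which encodes BLIMP1 and drives plasma cell differentiation, held 96, 68 and 28 counts in TG and 19, 15 and 16 in WT livers, so all TG livers lay above all WT livers. Its adjusted p was 0.353 with edgeR and 0.0639 with DESeq2. Irf4, another transcription factor gene of this list, had too few counts to be tested and was named after its values were seen. It held 8, 35 and 5 counts in TG and 15, 2 and 7 in WT livers, with overlap. Cxcr4, a homing receptor of plasma cells and many other leukocytes, held 98, 121 and 77 counts against 20, 20 and 44 and was the 1 gene of the list that DESeq2 called. The 4 genes below 0, named after their values were seen, were Xbp1 (log2 fold change -0.04), the transcription factor of the secretory programme, Sdc1 (-0.06), which encodes CD138 and is also made by hepatocytes, Eaf2 (-0.26) and Tent5c (-0.89), and the groups overlapped for each. The 21 secretory pathway genes, which hepatocytes also express at high levels, had a median log2 fold change of -0.12, with 6 above 0, and 0 passed with edgeR at either threshold or with DESeq2.

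For 7 tested immunoglobulin constant genes, all with a positive fold change, the median was 2.29 on the log2 scale, and 6 had an unadjusted p below 0.05. Adjusted over all genes 0 passed with edgeR and 4 with DESeq2. Igkc, the kappa light chain, held 891, 1247 and 162 counts in TG and 115, 108 and 89 in WT livers, with TG replicate 2 highest as for Mzb1. Ighd, the IgD heavy chain of naive B cells, named after its values were seen, held 14, 22 and 30 counts in TG and 29, 12 and 16 in WT livers, which overlapped as for the B cell genes. Constant genes resemble each other, so their single values are uncertain.

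Among signals for B and plasma cells, Cxcl13, the chemokine that attracts B cells, held 240, 3812 and 23 counts in TG and 70, 10 and 48 in WT livers. TG replicate 3 lay within the WT range, and the adjusted p was 0.380 with edgeR. Tnfsf13b, which encodes BAFF, named after its values were seen, held 13, 9 and 14 counts in TG and 13, 6 and 9 in WT livers. Of the 5 tested genes of this list 2 were higher at an unadjusted p below 0.05, and 0 passed with edgeR or DESeq2 after adjustment.

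Markers of other cells that can express the members or share the lymphoid lineage were read beside them. The 15 T cell markers, 6 of them tested, had a median log2 fold change of 0.01 with 0 at an unadjusted p below 0.05, and their summed level was 7.71 to 19.8 CPM in TG and 8.67 to 14.8 CPM in WT livers. Zap70, named after its values were seen, held 139 of 326, 99 of 274 and 60 of 152 of their reads in TG livers. In WT livers it held 106 of 234, 123 of 170 and 34 of 167, so the sum of WT replicate 2 rests mostly on this gene. The 9 natural killer cell markers summed to 9.82, 13.5 and 3.60 CPM in TG and 5.77, 2.72 and 3.95 CPM in WT, and 0 of 5 tested passed. Plasmacytoid dendritic cells also express Mzb1; their defining gene Siglech, named after its values were seen, held 16, 9 and 22 counts in TG and 12, 13 and 16 in WT livers. Of 9 tested markers of these cells 8 had a positive log2 fold change, with a median of 0.89. At an unadjusted p below 0.05, 3 were higher, Irf8, Tlr7 and Tlr9, which macrophages or B cells express too. The summed level of all 12 was 144 to 230 CPM in TG and 123 to 190 CPM in WT. Bst2, named after its values were seen, held most reads of that sum in every liver. It held 1319 of 2379, 2304 of 4075 and 2645 of 3466 reads in TG livers. In WT livers it held 1355 of 1937, 2056 of 2515 and 2751 of 3609, so the sum mainly follows Bst2. Red blood cell genes summed to 24.9 to 50.6 CPM in TG and 16.1 to 48.6 CPM in WT livers. By unadjusted p below 0.05 and a higher level in TG, the remaining lists gave 13 of 13 tested macrophage markers, 5 of 7 neutrophil markers and 7 of 7 leukocyte genes. The same count was 4 of 7 for receptors that bind or carry antibody, where the Fc receptor gene Fcgr4 held 689, 1234 and 136 counts in TG and 78, 85 and 205 in WT livers. It was 1 of 3 for germinal centre genes (S1pr2), 1 of 3 for B cell precursor genes (Cd93, which endothelial cells and macrophages also express), 1 of 9 for hepatocyte markers (Trf) and 0 of 5 for red blood cell genes. None of these passed edgeR's adjustment over all genes, while DESeq2 called 11 macrophage, 3 neutrophil, 4 leukocyte and 3 antibody receptor genes and S1pr2. The part of leukocyte content as a whole in the values of Jchain, Mzb1 and Pou2af1 was not tested.

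**Figure D4:**
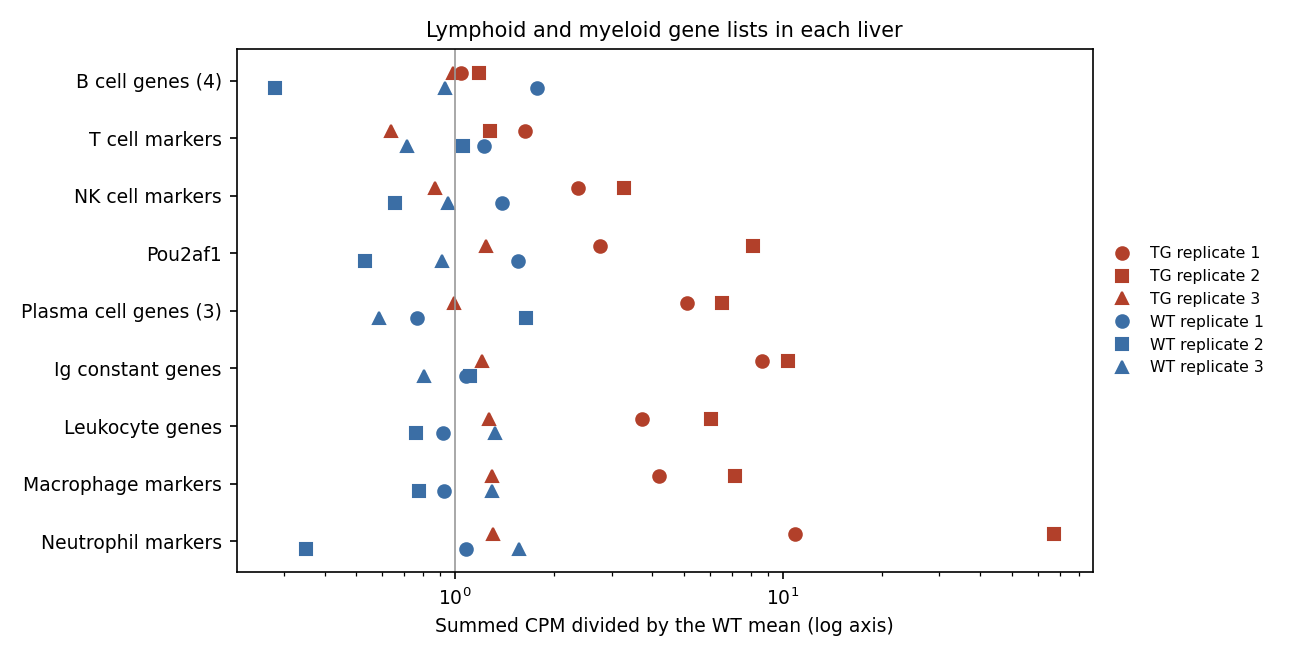
Summed CPM of each gene list divided by the mean of the 3 WT livers (x axis, log scale), with TG in red and WT in blue and a symbol for each replicate. The 4 B cell genes lie between 0.283 and 1.78 in all livers, while the 3 plasma cell genes lie at 5.11 and 6.52 and the immunoglobulin constant genes at 8.62 and 10.3 in TG replicates 1 and 2. Most reads of the plasma cell genes are from Jchain and most reads of the neutrophil markers are from Lcn2. Zap70 holds 123 of 170 T cell marker reads in WT replicate 2.

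The genes most like a member across the 6 livers were taken by the smallest root mean square distance between centred log2(CPM + 0.5) values, among 13026 genes other than Cd79a and 13025 other than Jchain with a mean of at least 1 CPM. For Jchain these were Mt1, a metallothionein, at 0.20, then Samsn1, Milr1, Napsa and Il1b, at 0.28 to 0.36, where the median gene lay at 1.25. Mt1 lay at 866, 999 and 119 CPM in TG and 138, 247 and 105 CPM in WT livers, so WT replicate 2 was the highest WT liver for both genes. For Cd79a they were Gm14418, Gm14399, Zfp446, Xpo4 and Mlst8, at 0.06 to 0.09, where the median gene lay at 0.41. These distances are descriptions over 6 libraries that share the same livers.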

How the data were processed

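RNA was extracted with Trizol from flash-frozen livers and made into libraries with a VAHTS Universal V6 kit, per the labels' protocols. The labels' molecule field names genomic DNA, but the values were treated as RNA counts. Per the submitters' processing notes, TopHat, Cufflinks and build mm10 were used; how reads were counted, and with which annotation and strand setting, was not given in the sources used here. In the authors' deposited table, values are raw read counts per Ensembl gene, 1 column per liver. Symbols came from a reference table that matched 52403 of 52550 identifiers. All 8 members matched 1 identifier each.

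TG and WT were compared with edgeR 4.0.16 in R 4.3.3 (filterByExpr by group, TMM scaling, robust quasi-likelihood test, two-sided, Benjamini-Hochberg adjustment over all tested genes, threshold 0.05). SE is the log2 fold change over the root of F. DESeq2 1.42.0 and limma voom 3.58.1 were alternatives, and all were tested on simulated counts. CPM use TMM-scaled total counts, with mean ± SD over n = 3 livers. The series' text describes separate mice. The labels state no shared litter or day, and same-numbered livers did not deviate together throughout (correlations 0.15, -0.22 and 0.10), so numbers were not paired. Named genes were the members, Slc7a11, up to 4 genes of the smallest p per list, Alb and the nearest genes of Cd79a and Jchain; not all are printed, and other genes are said to be chosen after their values were seen. Members, 17 other lists and this rule were chosen with earlier results of these data known.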

Additional observations from a re-analysis of the deposited data

How the results depend on the processing

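The number of genes called was 0 with edgeR, 390 with DESeq2 and 1 with limma voom, and ranged from 0 to 305 over the libraries left out in turn. The number of members called was 0 under all settings but 1; leaving out TG replicate 3 gave 2, so the range over left-out libraries was 0 to 2. The median log2 fold change of the tested B cell genes, -0.24, was -0.53 to 0.46 over left-out libraries and 0.85 when genes needed 1 CPM on average, where only Cd79b was tested. That of the tested plasma cell genes, 1.99 and resting on Jchain alone, was 1.56 to 3.24 over left-out libraries. Without TG replicates 1 and 2, a setting added after the data were seen, it was -0.061, as was the log2 fold change of Jchain. That fit takes the lone TG liver to vary like the WT livers. Cd79a changed sign without WT replicate 1 (0.038) and without TG replicates 1 and 2 (0.058), and Pax5 with voom (0.11) and without WT replicate 1; over left-out libraries Cd79a ranged from -0.53 to 0.038 and Pax5 from -0.86 to 0.46. The cause was not tested. In the model with replicate number as a block, the counts of genes and of members called were again 0, and Jchain lay at 1.78 (adjusted p 0.623, edgeR). Scaling by library size only shifted the median gene by 0.12 (log2) and changed the sign of none of the 4 tested members. Depth limits Ms4a1, Pou2af1, Mzb1 and Tnfrsf17, which held 0 to 15 reads per WT liver.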
